A study of Mus musculus with 6 samples.

Results

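Inflammasomes are cytosolic complexes that macrophages assemble when a sensor protein meets a microbial product or a sign of cell damage. A sensor such as NLRP3, AIM2 or NAIP5 with NLRC4 recruits caspase-1, in most cases through the adaptor ASC, and caspase-1 then matures interleukin-1β and interleukin-18 and cleaves gasdermin D, whose freed end forms pores in the plasma membrane and causes the lytic death called pyroptosis. In the non-canonical arm, caspase-4 of the mouse (long called caspase-11) binds lipopolysaccharide (LPS) in the cytosol and cleaves gasdermin D itself. The genes described here were 10 inflammasome genes chosen by their symbols, of 54532 genes in the deposited expression table: the sensors Nlrp3, Aim2, Nlrc4, Naip5 and Nlrp1b, the NLRP3 partner Nek7, the adaptor gene Pycard, the caspase genes Casp1 and Casp4, and the pore gene Gsdmd. Each of the 10 symbols matched 1 row, and 9 of them reached a mean of 1 FPKM (fragments scaled by gene length and library depth) over the libraries, the level above which a gene was tested. Nlrp1b did not, and was therefore not tested in the main comparison.

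The RNA came from thioglycollate-elicited peritoneal macrophages of wild-type male C57BL/6J mice, 6 to 8 weeks old. Control cells were left untreated. Model cells received LPS at 500 ng/mL for 5.5 h and then ATP at 2 mM for 0.5 h, the usual pair of signals for NLRP3 activation, and MUS cells received the same with muscone, the odorous macrocyclic ketone of musk, at 50 µM from 0.5 h before ATP. Each group had 2 libraries, and the labels give the replicate number also as the batch. Whether the libraries of a group came from separate mice or cultures is not given in the sources used here, so each p-value measures the spread between these libraries. With LPS or ATP alone not among the groups, the effects of these agents cannot be told apart, and muscone was measured only in their presence.

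The libraries held 15526321 to 17135442 fragments, by the totals recovered from the FPKM values. All 8 macrophage markers looked up (such as Lyz2, Cd68 and Adgre1) were present, with summed levels of 15989 to 16037 FPKM in Control, 9676 to 15007 in Model and 11096 to 12680 in MUS. Lyz2 alone, at 7275 to 12007 FPKM, gave most of each sum. Cd68, Ctsd and Csf1r were lower in every stimulated library than in Control, and Fcgr1 and Itgam were higher. Lyz2 overlapped with Control in both stimulated groups. Adgre1 and Mertk overlapped with Control in Model, but both MUS libraries lay above Control. Adgre1 stood at 134 and 284 FPKM in Control and 341 and 297 in MUS. Mertk stood at 24.1 and 11.3 FPKM in Control and 45.9 and 40.9 in MUS. The 4 markers each of B cells, T cells, mast cells, mesothelial cells and dendritic cells summed to at most 2.18 FPKM in any library. Of 5 neutrophil markers, Ly6g and Retnlg were at 0 throughout, and the sum of 13.7 to 112 FPKM was nearly all S100a8. Of 4 eosinophil markers Epx and Prg2 were at 0 and the sum was at most 4.17 FPKM. The untreated libraries differed from each other: of the 930 genes higher in Model, 85.9% stood higher in Control replicate 2 than in Control replicate 1, against 53.2% of all tested genes. In bulk RNA, a change in the number of cells that use a gene and a change in the RNA of each cell cannot be told apart.

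Promoters of the called genes Nlrp3, Casp1 and Casp4 are shown for reference, as the reference sequence 250 bases before to 50 bases after the start site (RefSeq, GRCm38.p6, written in the direction of the gene). Such windows were found for 9 of the 10 genes, all but Gsdmd. Capitals mark matches, on either strand, to the κB consensus, the DNA element bound by NF-κB, or to GAGGAAG, a core bound by the myeloid factor PU.1. Nlrp3 has 2 annotated starts, and its windows lie at chr11:59541319-59541618 and chr11:59542436-59542735 on the plus strand. The Casp1 window lies at chr9:5298267-5298566 and that of Casp4 at chr9:5308599-5308898, both on the plus strand, and Casp4 has a second window close by, with the same matches, that is not shown. Naip5, at chr13:100247287-100247586 on the minus strand, is shown beside them as a sensor gene with a κB match whose level was not called different between groups.
Nlrp3, first start: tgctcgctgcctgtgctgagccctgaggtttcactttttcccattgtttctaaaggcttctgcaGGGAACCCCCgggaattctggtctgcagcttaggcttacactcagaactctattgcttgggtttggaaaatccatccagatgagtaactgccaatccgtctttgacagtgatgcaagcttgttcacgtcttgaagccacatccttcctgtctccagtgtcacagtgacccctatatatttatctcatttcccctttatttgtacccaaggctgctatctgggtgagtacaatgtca
Nlrp3, second start: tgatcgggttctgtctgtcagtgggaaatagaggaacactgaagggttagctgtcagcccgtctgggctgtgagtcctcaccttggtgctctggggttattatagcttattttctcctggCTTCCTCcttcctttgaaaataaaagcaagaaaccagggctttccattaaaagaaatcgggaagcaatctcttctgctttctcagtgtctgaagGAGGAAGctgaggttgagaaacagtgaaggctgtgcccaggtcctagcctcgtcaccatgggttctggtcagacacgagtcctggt
Casp1: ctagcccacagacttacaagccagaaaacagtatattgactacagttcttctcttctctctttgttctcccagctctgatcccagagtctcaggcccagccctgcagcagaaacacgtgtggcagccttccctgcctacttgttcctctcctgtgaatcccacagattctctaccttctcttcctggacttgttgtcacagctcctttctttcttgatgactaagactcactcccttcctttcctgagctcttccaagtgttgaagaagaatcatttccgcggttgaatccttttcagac
Casp4: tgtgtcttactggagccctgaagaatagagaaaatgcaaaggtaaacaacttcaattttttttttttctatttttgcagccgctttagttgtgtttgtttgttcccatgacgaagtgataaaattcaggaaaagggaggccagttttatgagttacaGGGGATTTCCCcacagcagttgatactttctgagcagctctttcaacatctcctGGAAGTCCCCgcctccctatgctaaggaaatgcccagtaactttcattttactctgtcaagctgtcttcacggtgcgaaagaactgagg
Naip5: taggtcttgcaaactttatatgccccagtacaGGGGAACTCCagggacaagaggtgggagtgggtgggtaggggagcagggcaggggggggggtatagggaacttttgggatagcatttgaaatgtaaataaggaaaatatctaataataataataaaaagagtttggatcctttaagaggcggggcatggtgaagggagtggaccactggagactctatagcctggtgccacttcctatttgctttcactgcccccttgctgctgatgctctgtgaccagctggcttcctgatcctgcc

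The κB consensus was found in 4 of the 12 windows of these genes (in Nlrp3, Naip5 and both of Casp4) and in 8.46% of the 32851 RefSeq mouse promoter windows of the same length. In the Casp4 window shown, the matches began 93, 92 and 39 bases before the start site, the first pair overlapping, in Nlrp3 186 bases before the first start, and in Naip5 218 bases before its start. GAGGAAG was found in 4 of the 12 windows (Nlrp3 at its second start, Aim2, Pycard and 1 of Nlrp1b) and in 13.6% of all windows. GAAANNGAAA, the element of interferon regulatory factors, and TTCNNNGAA, that of STAT factors, were in none of the 12, against 3.44% and 8.30% of all windows. The Casp1 window held none of these 4 motifs.

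The LPS and ATP stimulus was first compared with no treatment. In Model vs. Control, 4 of the 9 tested genes were called higher and 0 lower: Nlrp3, Casp1, Casp4 and Gsdmd. A call required an adjusted p of at most 0.05 and a log2 fold change beyond 1 in limma, the thresholds of the study's methods applied here with another test, and 9.50% of the 9794 genes tested were called higher and 5.56% lower. The median log2 fold change was 0.91 over the 9 genes and 0.04 over all tested genes. Fold changes are differences of mean log2(FPKM + 1) and understate the change of low genes. The other 5 tested genes, among them the adaptor Pycard and the partner Nek7, were not called. Nlrp1b stood lower in Model but was not tested, so the count of 0 lower leaves it out.

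Nlrp3 (ENSMUSG00000032691, chr11:59541568-59566956, plus strand), the sensor that responds to ATP-driven potassium loss, stood at 7.20 and 52.5 FPKM in the Control libraries, 167 and 205 in those of Model, and 309 and 271 in those of MUS. The groups did not overlap, but the Control libraries were 7.29 times apart, the widest gap between replicates of any of the 10 genes. Model vs. Control gave a log2 fold change of 3.15 ± 0.78 (SE, limma adjusted p = 0.0351), with 4.36 in batch 1 and 1.94 in batch 2. The value was 1.80 without Control replicate 1 and 4.50 without Control replicate 2, and the call was lost without Model replicate 1 (adjusted p = 0.125), Model replicate 2 (0.110), MUS replicate 1 (0.0789) or MUS replicate 2 (0.0790), and in the fit of only Model and Control (0.0774). In MUS vs. Control the log2 fold change was 3.79 ± 0.78 (adjusted p = 0.0156), again unequal between batches at 5.24 and 2.35, and it was 2.44 without Control replicate 1. That call was lost without MUS replicate 1 (adjusted p = 0.116) or MUS replicate 2 (0.0790).

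Nek7 (ENSMUSG00000026393, chr1:138482875-138620141, minus strand), the kinase that binds NLRP3 and is needed for its assembly, stood at 16.9 and 14.3 FPKM in the Control libraries, 15.5 and 15.3 in those of Model, and 17.2 and 14.9 in those of MUS. All 3 groups overlapped. The difference of Model from Control was -0.01 on the log2 scale with a 95% interval of -0.57 to 0.54, and that of MUS from Control was 0.04 with an interval of -0.52 to 0.60. Changes within these intervals are not excluded with 2 libraries a group, and the intervals are not a limit of detection.

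Aim2 (ENSMUSG00000037860, chr1:173350879-173466040, plus strand), the sensor of cytosolic double-stranded DNA, stood at 9.37 and 10.3 FPKM in the Control libraries, 16.5 and 22.8 in those of Model, and 30.6 and 22.1 in those of MUS. Both stimulated groups lay above Control and overlapped each other. Model vs. Control gave a log2 fold change of 0.91 ± 0.28 (adjusted p = 0.0694) and was not called. MUS vs. Control gave 1.32 ± 0.28 (adjusted p = 0.0181) and was called, a call lost without Control replicate 1 (0.0715), MUS replicate 1 (0.172) or MUS replicate 2 (0.0667). The difference between MUS and Model was 0.40 with an interval of -0.27 to 1.07 and was not called (adjusted p = 0.759).

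The NAIP-NLRC4 sensors of bacterial flagellin and secretion systems were not called in any comparison. Naip5 (ENSMUSG00000071203, chr13:100211739-100246323, minus strand), which binds flagellin, stood at 10.1 and 7.97 FPKM in the Control libraries, 6.93 and 10.9 in those of Model, and 11.8 and 11.6 in those of MUS. Nlrc4 (ENSMUSG00000039193, chr17:74425438-74459142, minus strand), its signalling partner, stood at 1.93 and 4.58 FPKM in the Control libraries, 2.55 and 4.18 in those of Model, and 3.02 and 2.98 in those of MUS. Control and Model overlapped for both genes, with differences of -0.04 (interval -0.68 to 0.60) for Naip5 and 0.08 (interval -0.73 to 0.89) for Nlrc4. Naip5 in MUS was above both other groups in each library without passing the test, at 0.35 against Control (adjusted p = 0.371) and 0.39 against Model (adjusted p = 0.757). Of the 50-base stretches of Naip5 transcripts, 36.9% occur also in Naip6, Naip3, Naip1 or Naip2, so its level is uncertain to the extent that the counting split reads among them.

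Nlrp1b (ENSMUSG00000070390, chr11:71153102-71230733, minus strand), the remaining sensor gene, was the one gene of the 10 that stood lower than Control in every stimulated library. It was at 1.76 and 0.492 FPKM in the Control libraries, 0.0337 and 0.0512 in those of Model, and 0.0944 and 0.0781 in those of MUS. These are 325 fragments in the Control libraries together, 8 in Model and 17 in MUS, and the 3 groups did not overlap. The level in Model was 0.0380 times that in Control, with an exact interval of 0.0163 to 0.0758 that covers counting error only, and the level in MUS was 0.0763 times that in Control (0.0439 to 0.124). The Control libraries were 3.58 times apart, so these ratios depend on them: against Control replicate 1 alone they were 0.0243 for Model and 0.0488 for MUS, and against Control replicate 2 alone 0.0871 and 0.175. MUS against Model was 2.01 (0.821 to 5.37). Since its mean lay under 1 FPKM, Nlrp1b entered only 2 of the alternative fits. With voom on fragments of genes with at least 10 fragments in 2 libraries, an alternative chosen after seeing the data, Model vs. Control stood at -4.32 on the log2 scale (limma adjusted p = 0.0476), where 7.16% of 13598 genes were called lower, and MUS vs. Control at -3.38 (adjusted p = 0.0396), where 11.2% were. Nlrp1b reached 10 fragments only in the Control libraries (254 and 71), the group where it was high. The filter therefore let it in through the difference being tested, and these p-values lend that difference no support. That fit was not repeated without single libraries. In the limma fit with no filter on low values it was not called (adjusted p = 0.248 and 0.234).

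Pycard (ENSMUSG00000030793, chr7:127989708-127993867, minus strand), which encodes the adaptor ASC, stood at 8.85 and 10.6 FPKM in the Control libraries, 18.0 and 8.29 in those of Model, and 9.94 and 8.26 in those of MUS. Model replicate 1 was the high library, and the groups overlapped. The difference of Model from Control was 0.31 with an interval of -0.53 to 1.16 (adjusted p = 0.570). It was -0.20 without Model replicate 1, which had 24906 genes with at least 1 fragment against 17406 to 19200 in the other libraries, and the part of this in the result was not tested. Pycard shares 12.8% of its exon bases with Gm45205 on the opposite strand. Strand-specific counting is not given in the sources used here, so reads of the pair may not have been told apart.

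The caspases rose together. Casp1 (ENSMUSG00000025888, chr9:5298517-5307265, plus strand), the protease that all canonical sensors recruit, stood at 28.9 and 55.7 FPKM in the Control libraries, 300.0 and 211 in those of Model, and 285 and 226 in those of MUS. Casp4 (ENSMUSG00000033538, chr9:5308828-5336783, plus strand), its neighbour on the chromosome and the LPS-binding caspase, stood at 5.22 and 19.7 FPKM in the Control libraries, 97.4 and 86.9 in those of Model, and 106 and 90.9 in those of MUS. For both genes every stimulated library lay above both Control libraries, and the stimulated groups overlapped each other. Model vs. Control gave a log2 fold change of 2.62 ± 0.41 for Casp1 (SE, adjusted p = 0.00878) and 3.03 ± 0.53 for Casp4 (adjusted p = 0.0121). Within batches 1 and 2 these were 3.33 and 1.90 for Casp1, and 3.98 and 2.09 for Casp4. The Casp1 call was lost without Model replicate 1 (adjusted p = 0.0520), and the Casp4 call without Model replicate 1 (0.0723) or Model replicate 2 (0.0501).

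In MUS vs. Control the caspase values were close to those of Model, at 2.63 ± 0.41 for Casp1 (adjusted p = 0.00694) and 3.13 ± 0.53 for Casp4 (adjusted p = 0.00869). The calls were lost without MUS replicate 1, at an adjusted p of 0.0850 for Casp1 and 0.0868 for Casp4, and for Casp4 also without MUS replicate 2 (0.0539). The 2 stimulated groups share the Control libraries, so these values are not independent of those for Model.

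Gsdmd (ENSMUSG00000022575, chr15:75862327-75867408, plus strand), the substrate that forms the pore, stood at 13.7 and 24.1 FPKM in the Control libraries, 77.8 and 63.7 in those of Model, and 39.5 and 51.9 in those of MUS. The groups did not overlap, with MUS between Control and Model. Model vs. Control gave a log2 fold change of 1.90 ± 0.35 (SE, adjusted p = 0.0139), with 2.43 in batch 1 and 1.37 in batch 2, and the call was lost without Model replicate 1 (0.0719). MUS vs. Control gave 1.27 ± 0.35 (adjusted p = 0.0392), which was lost without Control replicate 1 (0.137), MUS replicate 1 (0.162) or MUS replicate 2 (0.217). The value was 0.88 without Control replicate 1. Of the genes called in both comparisons, Gsdmd had the smallest fold change in each.

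**Figure D1:**
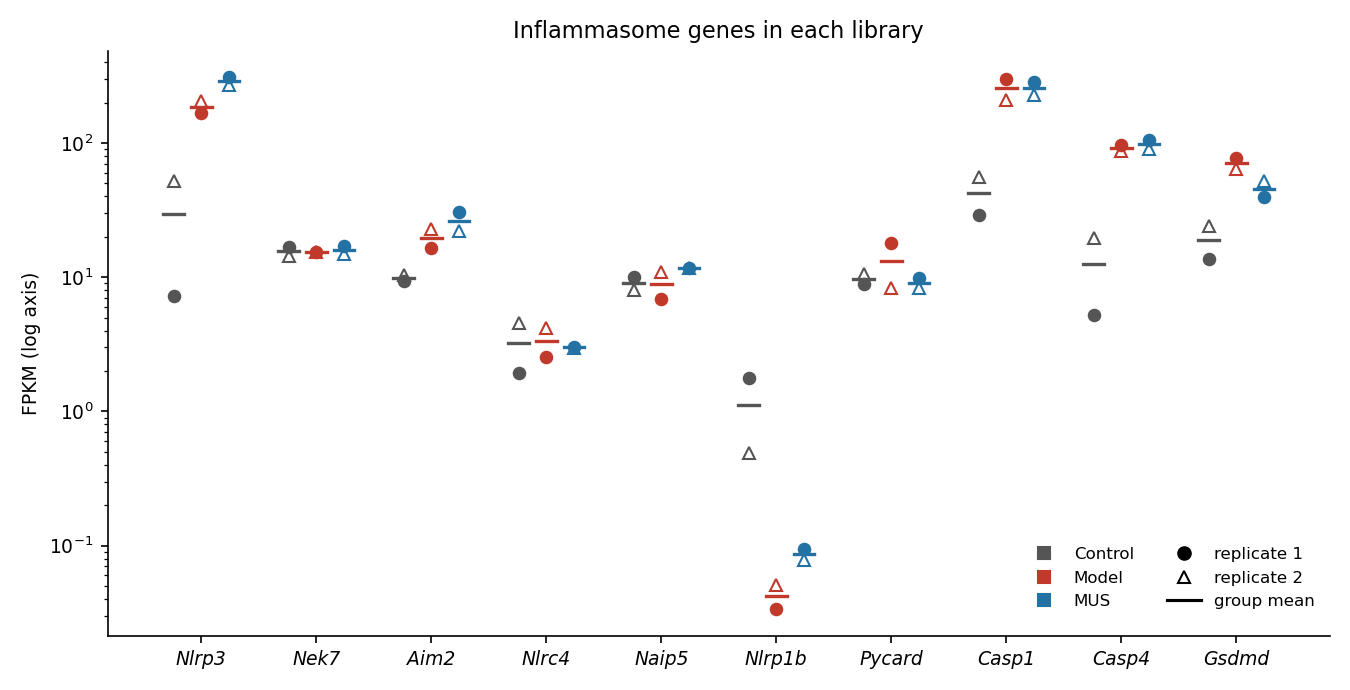
FPKM of the 10 genes in each library on a log axis, with groups by colour, replicates by symbol and the group mean as a bar. Nlrp3, Casp1, Casp4 and Gsdmd stood higher in all 4 stimulated libraries than in Control, Nlrp1b stood lower at 0.0337 to 0.0944 FPKM, and the 2 Nlrp3 libraries of Control lay at 7.20 and 52.5.

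The order of levels also differed between the groups, read as FPKM, a level per gene length. In Control, Casp1 had the highest mean (42.3 FPKM), followed by Nlrp3, Gsdmd, Nek7, Casp4, Aim2, Pycard and Naip5, and in this run every gene overlapped the next. Nlrc4 and Nlrp1b followed, each clear of the gene before it. In Model, Casp1, Nlrp3, Casp4, Gsdmd, Aim2 and Nek7 followed each other without overlap, from a mean of 255 down to 15.4 FPKM. Pycard overlapped both Nek7 above it and Naip5 below it. In MUS, Nlrp3 had the highest mean at 290 FPKM but overlapped Casp1, and the remaining 8 genes were each clear of the next, with Naip5 above Pycard.

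Across the 9 tested genes, 5 did not overlap between Model and Control in the higher direction and 0 in the lower, where 32.6% and 28.5% of all tested genes did so. In MUS vs. Control 5 genes were called higher and 0 lower (Aim2 beside the 4 above), against 11.3% and 8.91% of all tested genes. There 6 of 9 genes lay higher without overlap and 0 lower, against 39.6% and 33.8% of all genes, and the median log2 fold change was 1.27 against 0.04. Nlrp1b, which was not tested and is not in these counts, lay lower than Control without overlap in both comparisons. No test of these counts was made, because the genes were chosen with results of these data known. With 2 libraries against 2, an exact permutation test on 1 gene reaches p = 0.333 at the lowest, so the tests rest on the spread that limma shares across genes.

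The FPKM scale itself bears on these counts. The library size behind the deposited FPKM was 1.34 to 1.45 times the sum of the gene fragments in Control and 0.909 to 0.998 times in the stimulated libraries. On FPKM rescaled to the fragment totals, the median of all genes moved to -0.40 in Model vs. Control and -0.39 in MUS vs. Control. The split of calls in Model vs. Control was then 646 higher and 1554 lower, in place of 930 higher and 545 lower, and with quantile normalization it was 707 higher and 715 lower. The MUS vs. Control split was 738 higher and 1953 lower on fragment totals and 885 higher and 1102 lower with quantile normalization, in place of 1107 and 873. Nlrp3, Casp1, Casp4 and Gsdmd were still called in Model vs. Control on the scale of fragment totals, at 2.63, 2.08, 2.53 and 1.37. Pycard and Nlrc4 turned to -0.19 and -0.33 on that scale, but stood at 0.21 and 0.07 relative to the median of all genes. Nek7 and Naip5 moved to -0.53 and -0.54 there, not called, and each stood at -0.13 relative to the median of all genes. In MUS vs. Control, Gsdmd at 0.76 (adjusted p = 0.110) and Aim2 at 0.82 (0.0639) were no longer called, and relative to the median of all genes they stood at 1.15 and 1.21. With quantile normalization, Nlrp3 in Model vs. Control (adjusted p = 0.0879) and Gsdmd in MUS vs. Control (0.112) were not called. Nek7 in Model vs. Control was then at -0.34, also not called.

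**Figure D2:**
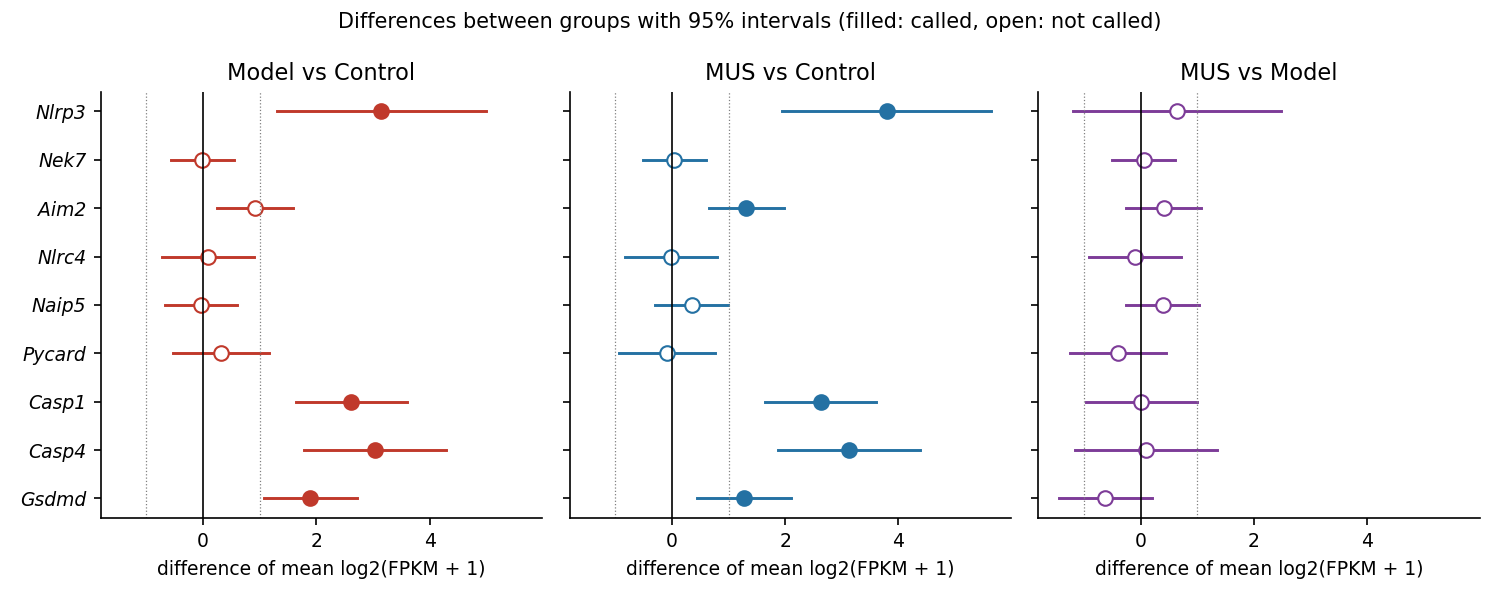
Difference of mean log2(FPKM + 1) between groups for the 9 tested genes, with 95% intervals from limma, 1 panel a comparison. Dotted lines mark a difference of 1 in either direction. The 4 genes called in Model vs. Control and the 5 in MUS vs. Control are filled, and in MUS vs. Model every interval holds 0.

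The comparison that isolates muscone is MUS vs. Model, in which both groups received LPS and ATP. In limma 0 of the 9 genes were called, and 0 had an unadjusted p under 0.05. Over all 9794 genes 0.00% were called and 825 had an unadjusted p under 0.05, the smallest adjusted p being 0.139. Voom on recovered fragments also called 0 genes, the replicate block called 4 genes and the fit of only these 2 groups 7, and none of the 9 inflammasome genes was called in any of these fits. The median log2 fold change was 0.05 over the 9 genes and 0.01 over all genes.

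Nlrp3 was higher in MUS than in Model in both libraries, by 0.64 with an interval of -1.20 to 2.48 (adjusted p = 0.880). Gsdmd was lower in both libraries, by -0.63 with an interval of -1.45 to 0.20 (adjusted p = 0.700), and within batches 1 and 2 by -0.96 and -0.29. With Naip5, 2 of the 9 genes lay higher without overlap and 1 lower, where 21.2% and 21.0% of all tested genes did so. Casp1 differed by 0.01 with an interval of -0.96 to 0.99, and Casp4 by 0.09 with an interval of -1.17 to 1.35. These intervals come from the fit of all 3 groups, so their width carries the spread of the Control libraries, which differed most for Nlrp3. In the fit of MUS and Model alone the intervals were -0.003 to 1.29 for Nlrp3 (unadjusted p = 0.0508, adjusted p = 0.557), -1.26 to 0.008 for Gsdmd (0.0521 and 0.558), -0.72 to 0.75 for Casp1 and -0.50 to 0.68 for Casp4. In both fits the intervals of Nlrp3, Gsdmd, Aim2, Naip5 and Pycard reached beyond a change of 1 in 1 direction or both, and those of Casp1, Nek7 and Nlrc4 did not.

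**Figure D3:**
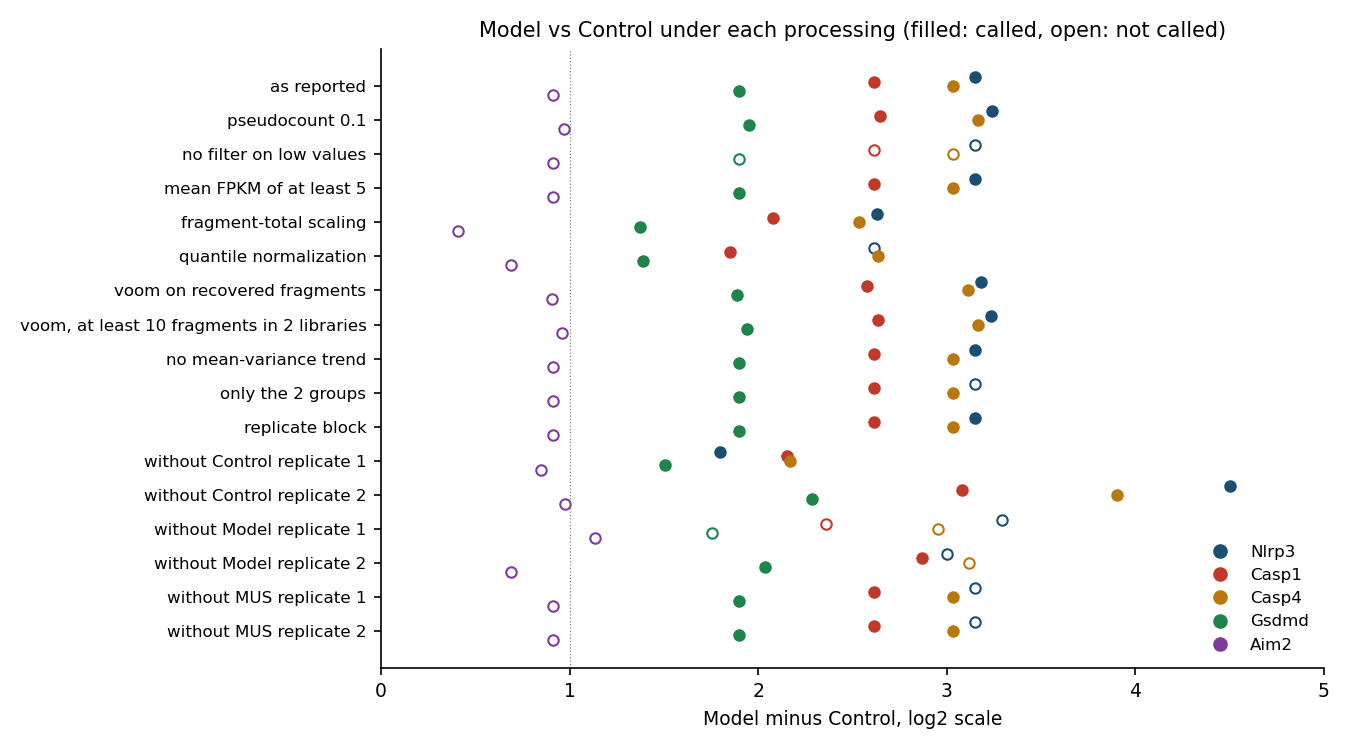
Model minus Control on the log2 scale for 5 inflammasome genes under each processing, filled where the gene was called. Without a filter on low values, and without Model replicate 1, none was called. Nlrp3 ranged from 1.80 to 4.50.

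Beyond these 10, 64 other genes of the pathway were listed in 7 groups. Of these, 63 were found in the expression table, and 48 reached 1 FPKM and were tested. The other 15 were not tested. Since most libraries were stimulated, this filter drops genes that fall with the stimulus more readily than genes that rise. More of the 15 stood lower than Control without overlap than stood higher, in Model and in MUS alike. The counts below therefore hold for tested genes only. In Model vs. Control 22 of the 48 were called higher and 0 lower, where 9.50% and 5.56% of all tested genes were, and in MUS vs. Control 22 higher and 3 lower, where 11.3% and 8.91% were. The counts of the single groups that follow stand against the same shares. In MUS vs. Model 0 were called, with 3 of 48 at an unadjusted p under 0.05, where 825 of all 9794 genes were. The median difference of the 48 genes between Model and Control was 0.89 on the log2 scale, against 0.04 over all tested genes. The lists were written with earlier results of these data known, so neither the counts nor this median is support for a shift of the pathway. The 3 genes at an unadjusted p under 0.05 in MUS vs. Model all lay lower in MUS. They were Txnip and Ninj1, given with their values further on, and Rela (-1.23, adjusted p = 0.463). Rela, an NF-κB subunit, was named after its values were seen.

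Among the cytokines that caspase-1 matures or that leave through the pore, Il1b and Il1a had the largest fold changes of the 48 genes. Il1b stood at 0.550 and 34.2 FPKM in Control and at 7646 and 4750.0 in Model (log2 fold change 9.67 ± 1.26, adjusted p = 0.00488). Il1a rose by 6.46 ± 0.79 and Il18 by 3.79 ± 0.50, so that 3 of the 4 genes of this group were called, Hmgb1 being the exception. Without a filter on low values these 3 calls were lost (limma adjusted p from 0.0616 for Il18 to 0.0707 for Il1b). Control replicate 2 was the higher Control library for all 3, as it was for Nlrp3, Casp1, Casp4 and Gsdmd.

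Of 9 genes on the interferon side, which license the non-canonical and AIM2 arms, 6 were called higher in Model vs. Control. They were led by guanylate-binding proteins, which coat bacteria and expose their LPS and DNA: Gbp5 (5.65 ± 1.18), Gbp3 (5.24 ± 0.82) and Gbp7 (4.51 ± 0.77). Of 11 priming genes 6 were called higher, with Tnfaip3, an inhibitory ubiquitin-editing enzyme, at 3.29 ± 0.58, Nfkbia, the NF-κB inhibitor, at 2.66 ± 0.62, and the LPS co-receptor Cd14 at 2.64 ± 0.59. The calls of all 6 genes named here were lost without Model replicate 1 (adjusted p from 0.0617 for Gbp3 to 0.122 for Nfkbia), and all but that of Gbp3 without Model replicate 2 (0.0523 for Tnfaip3 to 0.0793 for Nfkbia). Without either MUS replicate the calls of Gbp5, Nfkbia and Cd14 were lost (0.0518 to 0.0729). Without Control replicate 1, Gbp5 was 3.51, Nfkbia 1.66 and Cd14 1.80, the last no longer called (0.0544). With quantile normalization Nfkbia (0.0904) and Cd14 (0.0809) were not called, nor were they or Gbp5 in the fit of only Model and Control (0.0520 to 0.0715).

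Among the 4 tested genes of the other caspases and executors, 3 were called higher. Casp8, whose product acts in apoptosis and can also cleave gasdermin D, was among them at 1.53 ± 0.29. Of 11 tested regulators and partners, 2 were called higher, Ifi213 (4.87 ± 0.43) and Ifi208 (4.02 ± 0.28). They carry a pyrin domain and are listed also as Pydc4 and Pydc3. Ifi208, at 0.0250 and 0.640 FPKM in the Control libraries, passed the filter only through the stimulated libraries. Ifi213 stood at 0.205 and 2.09 FPKM in Control. Both were called in each of the 17 fits, while Casp8 lost its call without Model replicate 2 (adjusted p = 0.0514), with quantile normalization (0.0585) and without a filter on low values (0.0730). Of 3 other sensors tested, Mefv, which encodes the RhoA-pathway sensor pyrin, was called higher at 2.71 ± 0.56, and of 6 channel and membrane-repair genes Chmp4b, a subunit of the ESCRT machinery that removes damaged membrane, at 1.48 ± 0.37. Mefv was 1.77 without Control replicate 1 and lost its call without either Model replicate (0.0836 and 0.0801) or either MUS replicate (0.0541 and 0.0539), and in the fit of only Model and Control (0.0544). Chmp4b was called in 8 of the 17 fits, and of the single libraries only leaving out Model replicate 2 kept its call (highest adjusted p over the fits 0.199). With fragment-total scaling Chmp4b was at 0.94 and with quantile normalization at 0.63.

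The 3 genes called lower in MUS vs. Control were Txnip, Ninj1 and Kcnk6. Txnip, whose product binds thioredoxin and has been described as a partner of NLRP3, stood at 72.9 and 69.2 FPKM in the Control libraries, 59.6 and 47.7 in those of Model, and 15.0 and 17.7 in those of MUS. The 3 groups did not overlap. Its difference was -0.41 in Model vs. Control (interval -1.05 to 0.24, adjusted p = 0.331), -2.05 ± 0.27 in MUS vs. Control (adjusted p = 0.00422), and -1.65 ± 0.27 between MUS and Model, where it did not pass after adjustment (adjusted p = 0.273). Ninj1, which encodes the protein that ruptures the membrane after gasdermin pores form, stood at 167 and 185 FPKM in the Control libraries, 97.7 and 73.5 in those of Model, and 40.4 and 56.7 in those of MUS. Model lay -1.04 ± 0.33 from Control, which was not called (adjusted p = 0.0705), and MUS lay -1.85 ± 0.33 from Control (adjusted p = 0.00944) and -0.81 ± 0.33 from Model, which was not called (adjusted p = 0.560). Kcnk6, which encodes a potassium leak channel, was at -1.18 ± 0.22 in MUS vs. Control (adjusted p = 0.0111), and at -0.94 ± 0.22 in Model vs. Control (adjusted p = 0.0302), where only the fold threshold was missed. The difference of MUS from Model was -0.25 for Kcnk6 (adjusted p = 0.820). The calls of all 3 in MUS vs. Control were lost without MUS replicate 1, at an adjusted p of 0.0719 for Txnip, 0.126 for Ninj1 and 0.105 for Kcnk6. Those of Ninj1 and Kcnk6 were also lost without MUS replicate 2 (0.0545 and 0.0723), and that of Kcnk6 without Control replicate 1 (0.0672).

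**Figure D4:**
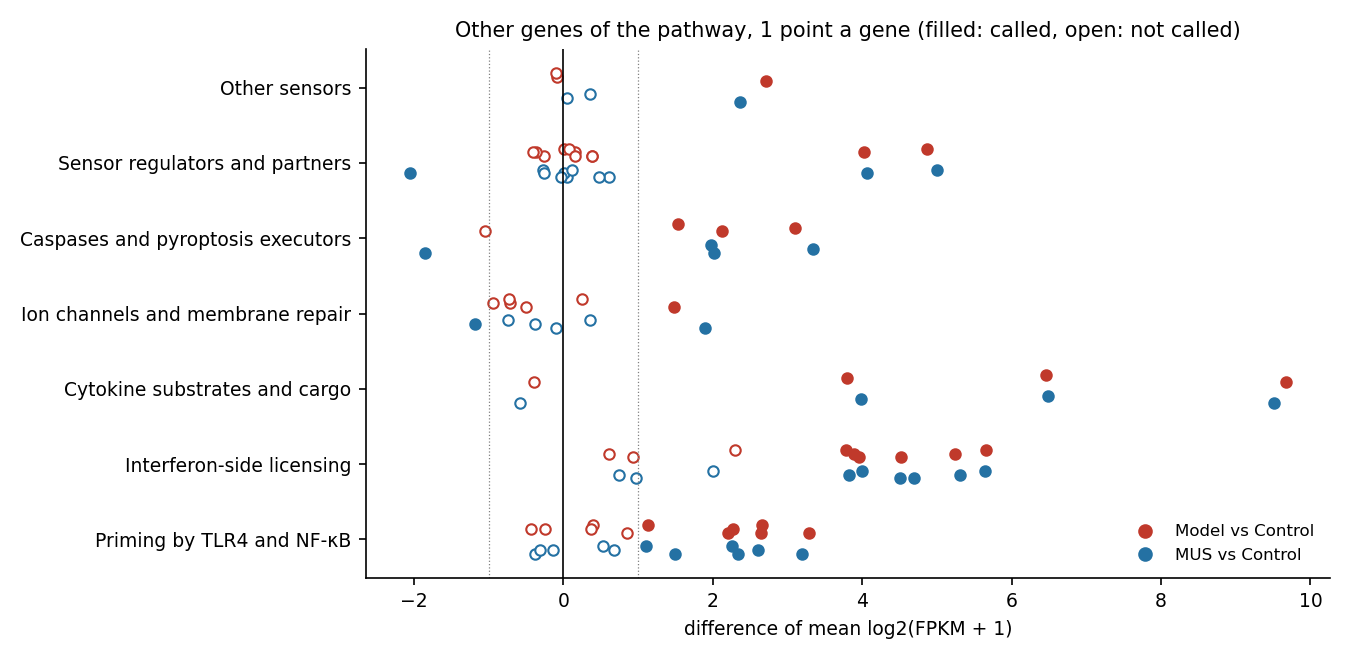
Difference of mean log2(FPKM + 1) for the 48 tested other genes of the pathway by group, in Model vs. Control and MUS vs. Control, filled where called. Dotted lines mark a difference of 1. The 22 genes called higher in each comparison include Il1b at 9.67 in Model vs. Control, and the 3 called lower in MUS vs. Control include Txnip at -2.05.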

How the data were processed

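The study measured poly-A RNA of peritoneal macrophages in 6 libraries, 2 in each of the groups Control, Model and MUS, grouped by their titles. The authors deposited 1 table of FPKM for 54532 genes. The labels name HISAT2, featureCounts 1.5.0-p3 and GRCm39, whereas the methods of the study name RSEM for FPKM. Positions of genes match GRCm38, being the same as in GENCODE M21 for 98.3% of 54409 shared IDs and for all 10 genes described.

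FPKM times gene length gave whole fragments (within 0.1) for 100% of values, with totals of 15526321 to 17135442 per library. On the deposited FPKM scale, 1 fragment on a gene of 1 kb is 0.0437 to 0.0709 FPKM. Genes with a mean of at least 1 FPKM (9794) were fitted as log2(FPKM + 1) in limma 3.58.1 (R 4.3.3), with 3 groups, a mean-variance trend and Benjamini-Hochberg adjustment over all genes tested, two-sided. FPKM are not counts, so no count model was the main test. Genes were called where the adjusted p did not exceed 0.05 and the log2 fold change passed 1 in either direction. The method was tested on simulated data. The SE and 95% intervals come from that fit, and counting intervals are exact and cover counting error only.

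The labels give the replicate number as a batch. What libraries of the same number share is not given in the sources used here. The differences of replicate 1 from replicate 2 correlated across genes at 0.119 between Control and Model, 0.136 between Model and MUS and -0.0928 between Control and MUS. The replicate block was an alternative, as were another pseudocount (0.1), no filter, a minimum of 5 FPKM, scaling to fragment totals, quantile normalization, voom on recovered fragments, no trend, only the 2 groups compared, and leaving out each library. All 10 genes are named whatever their values, and of the 64 other pathway genes at most 3 called genes for each direction of a group. Some genes of these lists are counted but not reported here by name. Of those 64, Marchf7 was not matched, and Pydc3 and Pydc4 were matched through RefSeq synonyms. The genes and lists were chosen with earlier results of these data known. Promoter windows came from RefSeq (GRCm38.p6), with Python 3.11.15.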

Additional observations from a re-analysis of the deposited data

How the results depend on the processing

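The counts of calls and the tested inflammasome genes were computed under 16 alternatives, of which the minimum of 5 FPKM left out Nlrc4, and Nlrp1b could be fitted in 2 of them. Without a filter on low values, where 30192 genes shared the adjustment, 0 of the inflammasome genes were called in Model vs. Control and 0 in MUS vs. Control, and 260 and 456 genes were called in place of 1475 and 1980. In that fit Ifi213 and Ifi208 kept their calls in Model vs. Control, and Txnip in MUS vs. Control. The other pathway genes named above as called lost theirs. With only the 2 groups compared, 797 genes were called in Model vs. Control and 7 in MUS vs. Model, in place of 0. In MUS vs. Model a pseudocount of 0.1 gave 1 gene and the replicate block 4. The replicate block changed no call of the inflammasome genes, with 4, 0 and 5 of them called. Fragment-total scaling left 3 of 5 inflammasome genes called in MUS vs. Control. Voom with at least 10 fragments in 2 libraries, chosen after seeing the data, called 2978 genes in MUS vs. Control.

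Leaving out 1 library gave 692 to 2077 genes in Model vs. Control, 0 to 31 in MUS vs. Model (31 without Model replicate 2) and 184 to 2398 in MUS vs. Control (184 without MUS replicate 1). The inflammasome genes called were then 0 to 4, with 0 without Model replicate 1, in Model vs. Control, and 0 to 5, with 0 without MUS replicate 1 and 1 without MUS replicate 2, in MUS vs. Control. In MUS vs. Model 0 of them were called under any alternative.

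Only values that were not called turned in sign. With fragment-total scaling these were Pycard (-0.19) and Nlrc4 (-0.33) in Model vs. Control, and Nek7 (-0.47) and Naip5 (-0.14) in MUS vs. Control. Relative to the median of all genes on that scale, they stood at 0.21, 0.07, -0.08 and 0.25, in that order. In MUS vs. Control, Nlrc4 was 0.0087 with a pseudocount of 0.1 and 0.035 with quantile normalization, and Nek7 was -0.26 with quantile normalization and -0.028 with voom. Leaving out 1 library gave, in Model vs. Control, -0.13 to 0.10 for Nek7, -0.38 to 0.55 for Nlrc4, -0.33 to 0.25 for Naip5 and -0.20 to 0.83 for Pycard. In MUS vs. Model it gave -0.92 to 0.12 for Pycard, -0.24 to 0.27 for Casp1, -0.37 to 0.17 for Nlrc4, -0.018 to 0.20 for Casp4 and -0.040 to 0.15 for Nek7. In MUS vs. Control it gave -0.21 to 0.033 for Pycard, -0.075 to 0.16 for Nek7 and -0.48 to 0.45 for Nlrc4. The causes were not tested. With 2 libraries a group and no separate LPS or ATP group, the fold changes of Nlrp3 and the other called genes are known only within wide intervals.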
